A study of Mus musculus with 6 samples.

Results

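The nuclear-encoded subunits of the mitochondrial respiratory chain and ATP synthase were compared between whole hippocampus and RNA purified with ribosomes tagged in Cx3cr1-expressing cells. Members were the protein-coding genes whose symbol begins Nduf followed by a, b, c, s or v and a digit, Sdh followed by a to d, Uqcr, Cox4 to Cox8, or Atp5, and the rule used no measured value. It found 79 of the 15388 genes in the table, with 35 in complex I, 4 in complex II, 8 in complex III, 17 in complex IV and 15 in complex V. All 79 passed the filter on low reads, among 15343 genes tested. Ndufa4 and Ndufa4l2 carry a complex I name and were placed with complex IV, where the Ndufa4 protein belongs.

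The mice were Cx3cr1-Cre/Ert2+; NuTRAP+, and the Cre recombinase, active only after tamoxifen (Tam), was driven by the Cx3cr1 promoter. At about 3 months of age they received Tam daily for 5 days, and tissue was collected 3 to 4 weeks later, so that short-lived blood monocytes would be replaced by unlabelled cells. After recombination the NuTRAP reporter tags ribosomes with GFP. Translating ribosome affinity purification (TRAP) of hippocampal homogenate with an anti-GFP antibody gave the Positive fraction, and the homogenate before purification gave Input. Animals 201, 207 and 208 each gave 1 Input and 1 Positive library, so both fractions shared genotype, Tam treatment and tissue. The sex of each animal was not given in the sources used here. The Cx3cr1 promoter is active in microglia and in other macrophages, and Input also held RNA that is not on ribosomes.

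Electrons from NADH enter the chain at complex I and electrons from succinate at complex II. Complexes III and IV pass them to oxygen, and complexes I, III and IV pump the protons that drive the ATP synthase. Complexes I, III and IV have a catalytic core and many small accessory subunits, while complex II is small, and a few core subunits of the chain are encoded in mitochondrial DNA. Every cell type of the hippocampus needs the chain, and neurons are heavy users of it.

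The libraries held 14879734 to 17757918 reads. Microglial markers were higher in Positive for 8 of 8 genes, with a median log2 fold change (Positive over Input) of 4.62. Oligodendrocyte markers were lower for 7 of 7, at a median of -2.44, and their summed scaled reads were 48701 to 55418 in Input and 11066 to 14547 in Positive. Scaled reads are raw reads corrected for library size by a factor from the fit. Of 8 neuronal markers none was called, at a median of 0.06. Endothelial markers were higher for 7 of 7, at 1.82, and pericyte markers were lower for 1 of 10, at -0.26. Astrocyte markers were lower for 3 of 7 and higher for 1, at -0.37. No marker was at 0 in any library, and in Positive the summed scaled reads were 83582 to 122859 for the microglial list and 106319 to 125234 for the neuronal list. Positive thus also held RNA of neurons, and its values are not levels in Cx3cr1-expressing cells alone. Animal 208 differed from the others in several lists. Its median log2 ratio of Positive over Input was -0.89 for pericyte markers, against 0.13 and 0.21 in animals 201 and 207, and -0.87 for astrocyte markers, against -0.13 and -0.27. For endothelial markers it was 1.11, against 2.21 and 1.94.

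The question was whether these housekeeping mRNAs kept the same level in both fractions. Of the 79 members, 42 were lower and 6 higher in Positive (quasi-likelihood test of edgeR, n = 3 per fraction, p-values adjusted by Benjamini-Hochberg over the whole table and read at 0.05), and 31 were not called. Over all genes tested 46.0% differed, with 22.0% lower and 23.9% higher, against 53.2% and 7.59% of the members. The median log2 fold change of the members was -0.25, that is 83.9% of the Input level, and that of all genes was -0.01. By animal it was -0.23 in 201, -0.34 in 207 and -0.20 in 208. In bulk samples, fewer cells of a type and less RNA per cell cannot be told apart, and the part of the marker shifts in these values was not tested.

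All 3 Positive libraries lay below all 3 Input libraries for 48 members and above them for 11, while 27.5% and 29.0% of all genes separated in that way. Leaving out 1 library gave 29 to 42 members lower. The count of members higher was less steady. It fell to 3 without Input 207, without Input 208 or without Positive 201, and it was 5 without Positive 208, where 42 members were lower. Total count scaling gave 49 lower and 3 higher, with 27.8% and 19.9% over all genes. With the animal as a block 43 were lower and 7 higher, beside 23.9% and 25.4% over all genes.

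**Figure D1:**
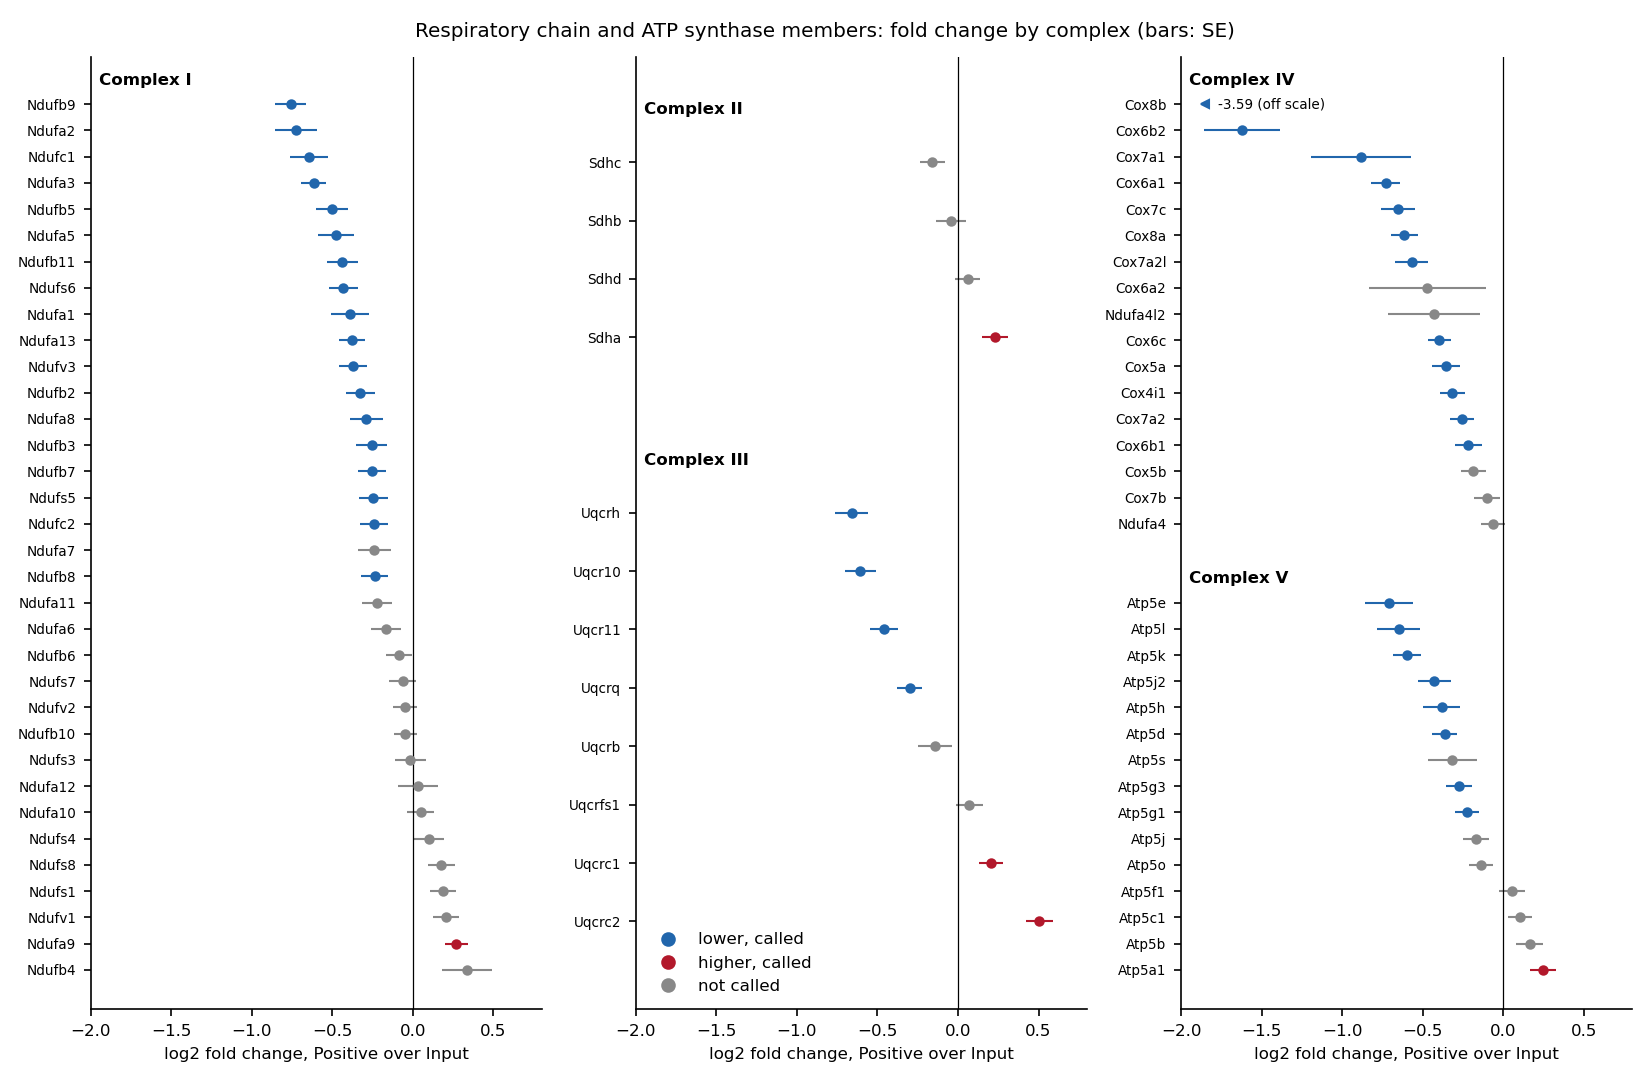
Log2 fold change of Positive over Input for 78 of the 79 members, by complex, with the standard error (SE) of the fit as bars and colour for the call (blue lower, red higher, grey not called). In complexes I and III and in the ATP synthase the members run from lower to higher, whereas all 17 of complex IV lie below 0, down to Cox8b at -3.59, which is drawn at the edge of the scale.

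As a share of all reads the members were a small part of each library. They took 1.03%, 1.13% and 1.07% of the reads in Input from animals 201, 207 and 208, and 0.966%, 0.926% and 0.985% in Positive. Each Positive share was below each Input share, and the mean difference was -0.115 percentage points (SD 0.0741 over 3 animals). Genes called more than 5-fold higher in Positive took a mean of 0.433% of reads in Input and 4.70% in Positive. With those genes left out of the total, the mean share of the members was 1.08% in Input and 1.01% in Positive. Over all reads these means were 1.07% and 0.959%, so the difference was smaller without those genes. Among the complexes, complex IV had the largest difference in mean share. Its share was 0.212% to 0.228% of reads in Input and 0.158% to 0.163% in Positive, whereas complex V held 0.345% to 0.373% and 0.330% to 0.353%.

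Complex I, the NADH dehydrogenase, split by role. Of its 28 accessory subunits, 18 were lower in Positive (64.3%, against 22.0% of all genes) and 1 was higher. Their median log2 fold change was -0.25. The 7 nuclear-encoded core subunits of the complex carry the flavin and the iron-sulfur clusters. None of them was lower and 1 was higher (14.3%, against 23.9% of all genes), with a median of 0.18. Without Input 208 the accessory count was 10 lower. The difference between core and accessory subunits was described and not tested. The core subunits are also the longer ones, with a median of 263 codons against 134, so role was not separated from coding length.

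Ndufb9, an accessory subunit of the membrane arm (chr15:58933756-58939488, plus strand, mm10), had the lowest value of complex I. It had 2471, 3150.5 and 3021 scaled reads in Input from animals 201, 207 and 208, and 1636, 1678 and 1802 in Positive. The fractions did not overlap, and Positive stood at 59.2% of Input, and the log2 fold change was -0.76 ± 0.10 (SE; adjusted p-value from edgeR 3.34e-05). Ndufa2, Ndufc1 and Ndufa3, other small accessory subunits, had log2 fold changes of -0.73, -0.65 and -0.62.

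At the other end, Ndufa9, the accessory subunit where the ubiquinone module meets the membrane arm, was the only accessory subunit of complex I called higher. It had 1903, 2002 and 1885 scaled reads in Input and 2316, 2272 and 2404 in Positive, without overlap (log2 fold change 0.27 ± 0.07 SE, edgeR adjusted p-value 0.00845). It remained called under each of 13 alternatives, with a highest adjusted p-value of 0.0499.

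Ndufv1, which binds NADH and the flavin, had the most reads of complex I. Its scaled reads were 3308, 3521 and 3716 in Input and 4069.6, 3775 and 4305 in Positive. The libraries did not overlap, but the log2 fold change of 0.20 ± 0.08 (SE) did not pass (edgeR adjusted p-value 0.056). The other core subunits Ndufs1 and Ndufs8 also lay above Input in each library without passing, at 0.19 and 0.18. Ndufb4 had the highest value of the complex, 0.33, and was not called: its scaled reads were 239, 165 and 194 in Input and 237, 243 and 274 in Positive, which overlap. Its reads are uncertain, because the near-identical gene Ndufb4c is also in the table with a mean of 346 scaled reads.

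Complex II, succinate dehydrogenase, has no mitochondrially encoded subunit, and 1 of its 4 genes differed. Sdha, the flavoprotein that oxidizes succinate (chr13:74322254-74350280, minus strand), had 6972, 7834 and 7461 scaled reads in Input and 8813, 8276 and 9061 in Positive. Positive exceeded Input in each library, by 0.23 ± 0.08 on the log2 scale (SE, edgeR adjusted p-value 0.035). The call was not steady: it was lost without Input 201, 207 or 208 and without Positive 201, with adjusted p-values from 0.0141 to 0.14 over 13 alternatives. The membrane anchor Sdhc was the lowest of the complex and was not called, with 1484, 1589 and 1518 scaled reads in Input and 1287, 1427 and 1396 in Positive (log2 fold change -0.16 ± 0.08 SE, edgeR adjusted p-value 0.107). Sdhb and Sdhd had log2 fold changes of -0.04 and 0.06.

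Complex III, the cytochrome bc1 complex, was also read by role. Of 3 members grouped as core 2 were higher (66.7%, against 23.9% of all genes), at a median of 0.21. Of 5 small accessory members 4 were lower (80%, against 22.0%), at -0.46. The 2 higher, Uqcrc1 and Uqcrc2, are core proteins by name and not catalytic subunits. Uqcrc2, a large core protein (chr7:120635176-120659524, plus strand), had 3000.3, 2442 and 2651 scaled reads in Input and 3801, 3828 and 3859 in Positive. That is 142% of Input, with no overlap, and the highest log2 fold change of all 79 members, 0.50 ± 0.08 (SE, edgeR adjusted p-value 0.000366). Its partner Uqcrc1, the member of complex III with the most reads, had 3839.8, 3950.0 and 3853 in Input and 4539, 4152 and 4740.3 in Positive. Those did not overlap either, but the difference was smaller, 0.21 ± 0.08 (SE, edgeR adjusted p-value 0.0449), and the call was lost without any 1 of the libraries except Positive 207, with adjusted p-values from 0.0261 to 0.19 over 13 alternatives. The Rieske iron-sulfur protein Uqcrfs1 was at 0.07 and was not called.

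Uqcrh, the acidic hinge protein that helps cytochrome c dock (chr4:116066965-116075071, minus strand), was the lowest of complex III. It had 1596, 2048 and 1905 scaled reads in Input and 1149, 1075 and 1292 in Positive. The fractions did not overlap, and the log2 fold change was -0.66 ± 0.10 (SE, edgeR adjusted p-value 0.000201). Uqcr10, Uqcr11 and Uqcrq, further single-helix or small subunits, were also lower, at -0.61, -0.46 and -0.30. Uqcrb, at -0.14, was not called.

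**Figure D2:**
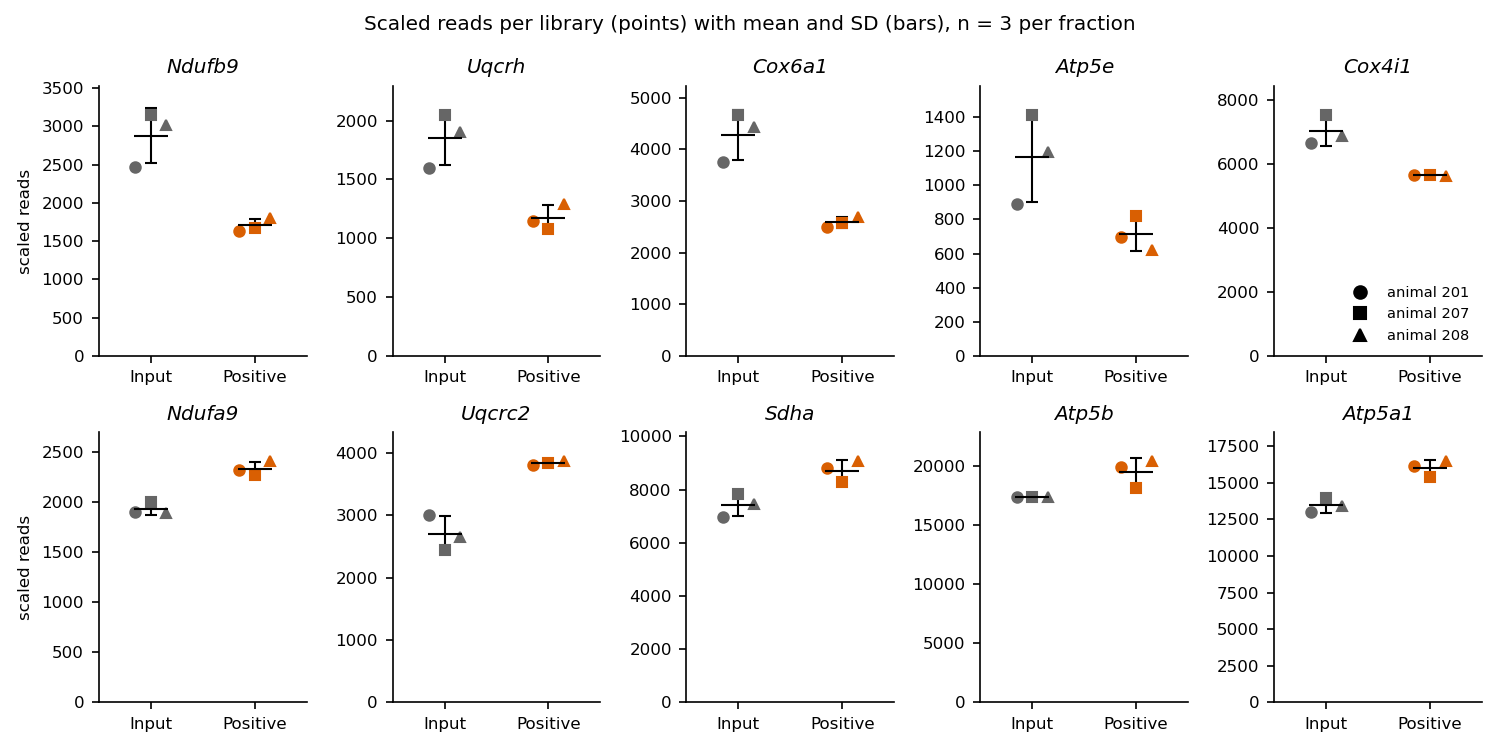
Scaled reads of 10 members in each library (circle animal 201, square 207, triangle 208), with the mean as a line and the SD as bars, n = 3 per fraction and axes from 0. Ndufb9, Uqcrh, Cox6a1, Atp5e and Cox4i1 in the upper row are lower in Positive, and Ndufa9, Uqcrc2, Sdha, Atp5b and Atp5a1 in the lower row are higher, of which Atp5b (0.16) did not pass the test.

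Complex IV, cytochrome c oxidase, has its catalytic subunits in mitochondrial DNA, so that all 17 members are accessory. None was higher in Positive and 12 were lower (70.6%, against 22.0% of all genes). Of the 11 common subunits 8 were lower, at a median log2 fold change of -0.32. Of 6 tissue isoforms or relatives 4 were lower, at -0.73, although only 1 of these 4 passed a filter at 100 scaled reads, because the others have few reads.

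Cox4i1, the common form of subunit 4 (chr8:120668222-120674207, plus strand), had the most reads of complex IV. It had 6632, 7524 and 6877 scaled reads in Input and 5662, 5645 and 5605 in Positive, with no overlap and a log2 fold change of -0.32 ± 0.08 (SE, edgeR adjusted p-value 0.00571). Per kilobase of transcript it was the most abundant member in Input, at 9410.3 scaled reads per kb, just above Atp5b at 9054. In Positive the order of that level turned, with Atp5b at 10154 and Cox4i1 at 7567 scaled reads per kb. Cox4i2 was not analysed here.

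Subunits 6a, 6b, 7a and 8 each have a common form and a form better known from other tissues. Cox6a1, the common form of 6a (chr5:115345642-115348981, minus strand), had 3748, 4668 and 4427 scaled reads in Input and 2491, 2569.6 and 2695 in Positive. Without overlap, Positive stood at 60.4% of Input (log2 fold change -0.73 ± 0.09 SE, edgeR adjusted p-value 2.79e-05). The muscle form Cox6a2 had only 26.4, 22.5 and 56.4 scaled reads in Input and 19.5, 25.9 and 30.0 in Positive, which overlapped, and no difference was detectable at this depth (-0.47 ± 0.37 SE, edgeR adjusted p-value 0.314).

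Cox8b, the muscle form of subunit 8 (chr7:140898945-140900446, minus strand), had the lowest log2 fold change of all members. Its scaled reads were 45.7, 59.9 and 115 in Input and 2.05, 3.71 and 12.4 in Positive. No Positive library reached the lowest Input library, and the log2 fold change was -3.59 ± 0.51 (SE, edgeR adjusted p-value 9.95e-05). With limma on the deposited log2 values the adjusted p-value was 0.0965, the highest of 12 alternatives, and the lowest was 2.76e-10. The common form Cox8a had 4075, 3431 and 3639 scaled reads in Input and 2463, 2321 and 2504 in Positive, also without overlap (-0.61 ± 0.08 SE, edgeR adjusted p-value 6.29e-05). As a share of both subunit 8 genes by reads, Cox8b was 1.11%, 1.72% and 3.06% in Input and 0.0833%, 0.159% and 0.493% in Positive.

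Other sets of genes moved beside Cox8b. Oligodendrocyte markers were lower for 7 of 7 genes, at a median log2 fold change of -2.44. Choroid plexus and ependymal markers were lower for 5 of 8 genes, at a median log2 fold change of -1.34, and their summed scaled reads were 27300 to 36639 in Input and 6772 to 8441 in Positive. Their leading gene Ttr, which encodes transthyretin, was at -2.21, and 0 of the 8 genes were higher. Of 7 markers of parvalbumin interneurons 3 were lower and 2 higher, at a median of 0.14, from -2.07 for Pvalb to 0.55 for Gad2. The part of any of these cells in the Cox8b difference was not tested.

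Cox6b2, known from testis, had 106, 88.0 and 99.3 scaled reads in Input and 28.7, 38.9 and 26.9 in Positive. The libraries were far apart, at 32.5% of Input (log2 fold change -1.62 ± 0.23 SE, edgeR adjusted p-value 0.000104). The common form Cox6b1 had 2285, 2760.1 and 2444 scaled reads in Input and 2133, 2188 and 2129 in Positive. It did not overlap between fractions either, but differed little and at the edge of the threshold (-0.22 ± 0.08 SE, edgeR adjusted p-value 0.0481), and its call was lost without each library except Input 201, with adjusted p-values from 0.0117 to 0.247 over 13 alternatives.

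Cox7a1, the muscle form of 7a, had 24.4, 33.7 and 33.4 scaled reads in Input and 12.3, 20.4 and 16.6 in Positive. The fractions were separate (-0.88 ± 0.31 SE, edgeR adjusted p-value 0.0331), but the call was lost without Input 207, Input 208 or Positive 201, and over 12 alternatives the adjusted p-value ran from 0.0152 to 0.111. The common form Cox7a2 had 1504, 1478 and 1375 scaled reads in Input and 1206, 1191 and 1255 in Positive (-0.26 ± 0.08 SE, edgeR adjusted p-value 0.0156). That separation held in every library, and the call was lost without Input 201 or Input 207, at up to 0.0619. Cox7a2l, a relative of 7a that links complex III to complex IV in supercomplexes, had 1636, 2170.2 and 1964 scaled reads in Input and 1285, 1401 and 1209 in Positive (-0.57 ± 0.10 SE, edgeR adjusted p-value 0.000674).

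Ndufa4 and Cox7b changed least among the common subunits. Ndufa4 had 2967, 2697 and 2715 scaled reads in Input and 2555, 2642 and 2826 in Positive, and Cox7b had 1574, 1525 and 1490.3 in Input and 1298, 1475 and 1501 in Positive. Both overlapped between fractions, and their log2 fold changes of -0.06 and -0.10 were not called. Ndufa4l2, a paralog of Ndufa4 induced by hypoxia, had 46.8, 30.0 and 37.6 scaled reads in Input and 34.9, 25.0 and 24.8 in Positive, which overlapped (-0.43 ± 0.28 SE, edgeR adjusted p-value 0.234).

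**Figure D3:**
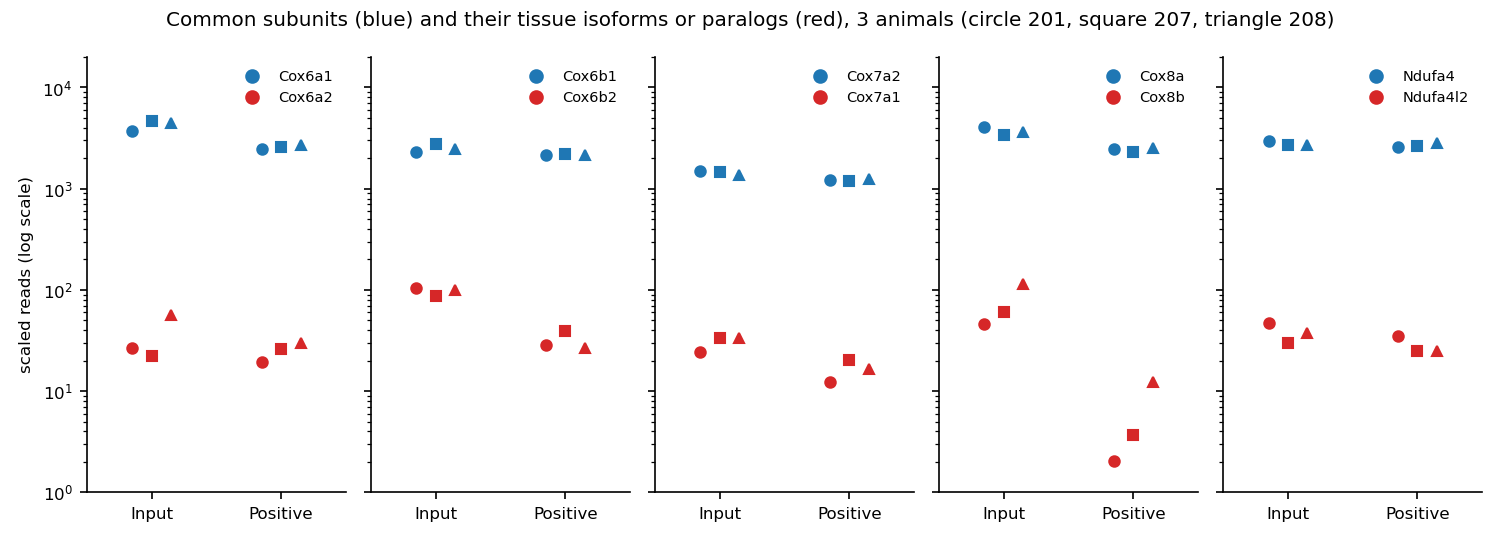
Scaled reads per library on a log axis for 5 pairs of a common subunit (blue) and its tissue isoform or paralog (red), in Input and Positive of animals 201 (circle), 207 (square) and 208 (triangle). Cox8b drops from 45.7 to 115 scaled reads in Input to 2.05 to 12.4 in Positive and Cox6b2 from 88.0 to 106 down to 26.9 to 38.9, whereas Cox6a2 and Ndufa4l2 overlap between fractions.

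Complex V, the ATP synthase, joins a catalytic head to a rotor and a membrane part. Of its 15 members 8 were lower (53.3%, against 22.0% of all genes) and 1 was higher (6.67%, against 23.9%). Without Input 208 the lower count was 5. The catalytic head was at or above Input. Atp5a1, the alpha subunit, had 12996, 13962 and 13389 scaled reads in Input and 16106, 15368 and 16452 in Positive, with each Positive library above each Input library (log2 fold change 0.25 ± 0.08 SE, edgeR adjusted p-value 0.0258). That call was lost without Input 201, 207 or 208 and without Positive 201, with adjusted p-values from 0.00343 to 0.109 over 13 alternatives. Atp5b, the beta subunit that makes ATP, had the most reads of all members, at 17326, 17358 and 17357 in Input and 19861, 18142 and 20360.4 in Positive, and the 0.16 ± 0.09 (SE) did not pass (edgeR adjusted p-value 0.132).

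Atp5e, the epsilon subunit of the central stalk (chr2:174461072-174464105, minus strand), was the lowest of complex V. Its scaled reads were 889, 1413 and 1193 in Input and 695, 819 and 623 in Positive. They did not overlap, at 61.1% of Input (-0.71 ± 0.15 SE, edgeR adjusted p-value 0.00184). Of the same stalk, the delta subunit Atp5d was lower, at -0.36, and the gamma subunit Atp5c1 was at 0.11 and not called. All 3 subunits of the membrane part, Atp5l, Atp5k and Atp5j2, were lower, at -0.65, -0.60 and -0.43.

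The c ring, which turns as protons pass, is encoded by genes that give the same mature protein. Atp5g3 had 3487, 4117 and 3849 scaled reads in Input and 3169, 3048 and 3242 in Positive, and Atp5g1 had 1870.1, 1745 and 1839 in Input and 1551, 1518 and 1603 in Positive. Neither overlapped between fractions, and the log2 fold changes were -0.28 (edgeR adjusted p-value 0.0142) and -0.22 (0.0247). Those calls were lost for Atp5g3 without Input 207 or Input 208 and for Atp5g1 without Input 201, Input 208, Positive 201 or Positive 207, at up to 0.0868 and 0.0942. Atp5g1 made up 29.8% to 34.9% of the reads of the pair in Input and 32.9% to 33.2% in Positive, so the balance between them did not separate the fractions. Atp5g2 was not analysed here. Of 4 peripheral stalk subunits 1, Atp5h, was lower at -0.38, and this call was lost without Input 207, Input 208 or Positive 207.

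**Figure D4:**
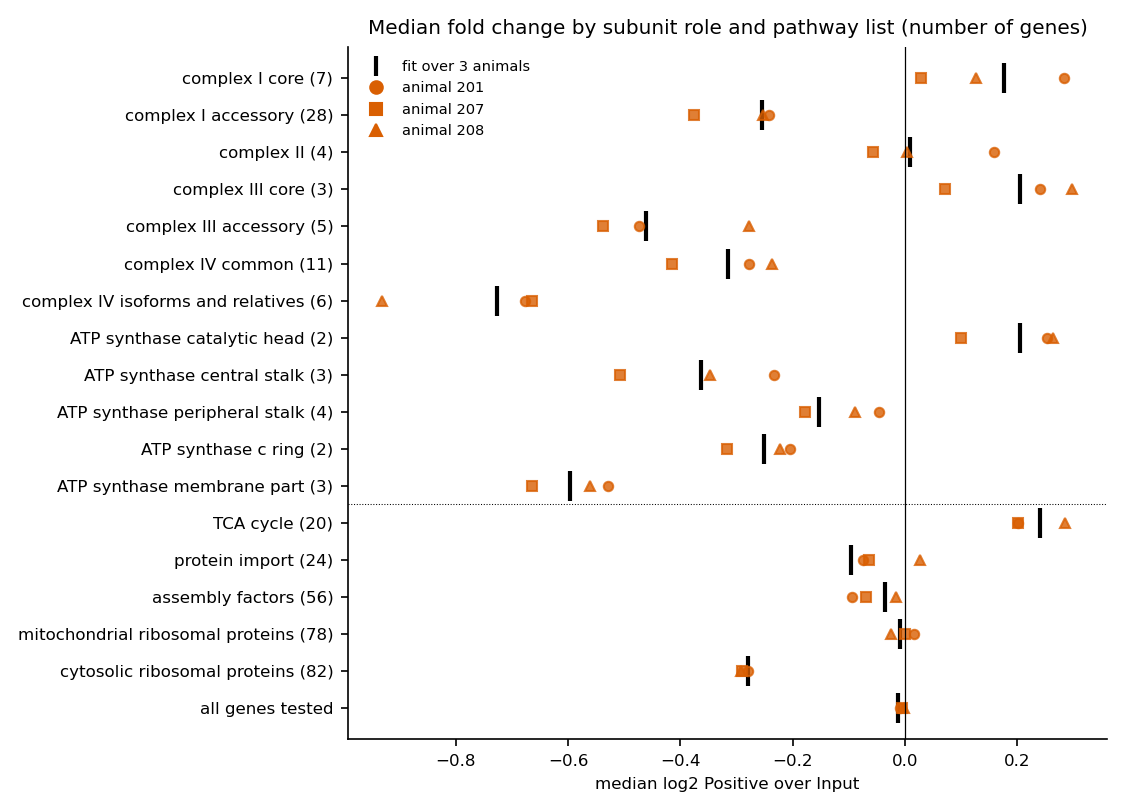
Median log2 Positive over Input for groups of members by role (above the dotted line) and for related gene lists (below it), with the fit over all libraries as a black mark and each animal as an orange symbol. The subunits grouped as core in complexes I and III and the catalytic head of the ATP synthase lie at 0.18 to 0.21. The accessory subunits of complexes I, III and IV and the membrane part of the ATP synthase lie at -0.25 to -0.73.

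The members that rose and those that fell differed in coding length, a property the selection rule did not use. Length went with role. Core members had 212 to 727 codons in complex I and 274 to 480 in complex III, and accessory members 70 to 468 and 56 to 111. Role and length were therefore not separated here. The cut at 200 codons was set with the values known, and so it got no test. Of the 58 members under 200 codons, 41 were lower in Positive (70.7%, against 22.0% of all genes) and none was higher. Of the 21 members with 200 codons or more, 6 were higher (28.6%, near the 23.9% of all genes) and 1 was lower. The latter was Ndufv3, an accessory subunit of complex I with 468 codons and a log2 fold change of -0.37. The shorter members took 0.552% to 0.620% of the reads in Input and 0.430% to 0.442% in Positive. The longer members took 0.478% to 0.507% and 0.496% to 0.543%, which overlap. Of the 6 longer members called higher, 3, among them Ndufa9 and Uqcrc2, were called in every leave-one-out fit.

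Across the 79 members, the Spearman correlation of codons with log2 fold change was 0.71, and across the 72 left without the tissue isoforms, Cox7a2l and Atp5s it was 0.69. The points share the same 6 libraries, and the number is a description. By animal it was 0.75, 0.56 and 0.67. It was 0.58 over 35 genes in complex I and 0.90 over 14 in complex V, but 0.20 over the 11 common subunits of complex IV, which all have fewer than 200 codons. Over 13773 tested genes with a coding sequence the correlation was 0.11. Transcript length in place of codons gave 0.67 over the 79 members, 0.69 over the 72 and 0.04 over the tested genes. Coding length and transcript length were therefore not told apart among the members. Read level also went with fold change among members, at a Spearman correlation of mean scaled reads with log2 fold change of 0.47.

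Short coding sequences were lower in Positive beyond the members too. Of 304 tested genes under 100 codons, the members included, 47.4% were lower and 10.5% higher, while 19 of the 23 members of that length, or 82.6%, were lower. From 400 codons upward 28.2% of 8129 genes were higher and 17.1% lower, and of 9 members 5 were higher and 1 was lower. Whether library preparation, fragment size or ribosome occupancy bears on short transcripts was not tested.

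**Figure D5:**
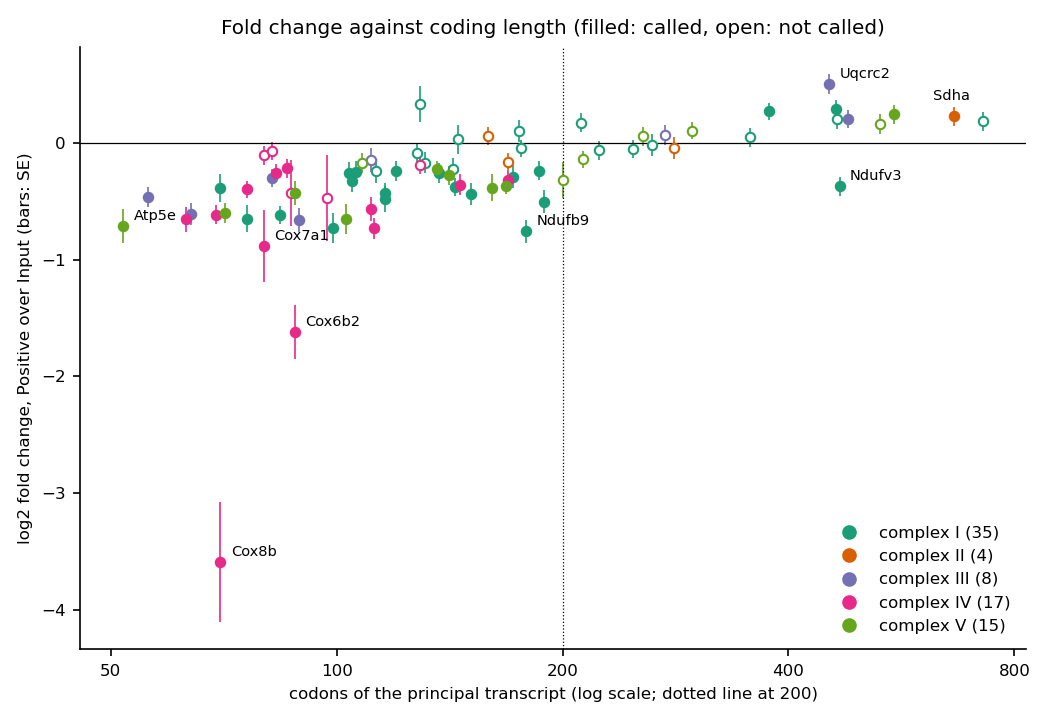
Log2 fold change of Positive over Input against the codons of the principal transcript (log axis) for the 79 members, coloured by complex, with SE as bars and open symbols for members not called. Left of the dotted line at 200 codons 41 of 58 members were lower and 0 higher, and on or right of it 6 of 21 were higher and 1 was lower.

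Related gene lists were read beside the members. The tricarboxylic acid (TCA) cycle supplies the NADH and succinate. Its list also held pyruvate dehydrogenase, pyruvate carboxylase and malic enzyme genes. Of its 20 genes 13 were higher (65%, against 23.9% of all genes) and 0 lower, at a median log2 fold change of 0.24. Suclg2, a succinyl-CoA ligase subunit, and Idh2, the NADP-dependent isocitrate dehydrogenase, had the largest values, at 0.63 and 0.59. The count of 13 fell to 5 without Input 207 and to 7 without Input 208, and was 7 under total count scaling or with limma. A further list held carriers of adenine nucleotides and phosphate, outer membrane channels and creatine kinases. Of its 8 genes 2 were higher (25%, near the 23.9% of all genes), at a list median of 0.05. They were the ADP/ATP carrier Slc25a5 at 0.56 and the outer membrane channel Vdac2 at 0.38.

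Lists of ribosomal and import proteins were also read. Cytosolic ribosomal proteins had 43 of 82 genes lower (52.4%, against 22.0% of all genes) and 4 higher (4.88%, against 23.9%). Their median was -0.28, with Rps27 and Rps21 at -0.99 and -0.98. Mitochondrial ribosomal proteins had 12 of 78 lower (15.4%, below the 22.0% of all genes) and 4 higher (5.13%, against 23.9%), at -0.01. Only 5 to 7 were lower without Input 207, Input 208 or any 1 of the Positive libraries. The Spearman correlation of codons with log2 fold change was 0.49 and 0.41 in these lists. The protein import machinery had 6 of 24 lower (25.0%, near the 22.0% of all genes) and 2 higher (8.33%, against 23.9%). Its lowest were the small subunits Tomm7 and Timm8b, at -0.70 and -0.64.

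Factors that build or regulate the chain were read as well. Of 56 assembly factors 13 were lower (23.2%, near the 22.0% of all genes) and 4 higher (7.14%, against 23.9%). Their median was -0.03, and 8 were lower without Input 207. Ndufaf8, needed for complex I, was at -0.73, and Coa4, a complex IV factor, at 0.86. Coa4 rests on few reads, 26.4 to 32.8 scaled reads in Input and 39.3 to 64.6 in Positive. Of 14 genes for electron carriers or for making ubiquinone, only Coq2, of the ubiquinone pathway, was called, at -0.75. Cytochrome c (Cycs) was at -0.08 and not called. Of 3 further ATP synthase genes the small subunits Usmg5 and 2010107E04Rik were lower, at -0.68 and -0.56, and the inhibitor Atpif1 was at -0.05. Among 19 regulators of mitochondrial biogenesis 3 were higher and 2 lower (15.8% and 10.5%, both below the shares of all genes). The coactivator Ppargc1a was at -0.49 and the mitochondrial DNA polymerase Polg at 0.35. Cyc1 and Ndufab1, subunits that the symbol rule does not take, were at 0.11 and -0.20 and not called. The 13 subunits encoded in mitochondrial DNA were not analysed here.

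Genes of this family have many processed pseudogenes, whose reads can be mixed with those of the parent. Of the 79 members 24 had a transcript of another gene at 95% identity or more over at least 100 nucleotides, and their reads are uncertain. Of these 24, 15 were lower and 0 higher, and of the other 55, 27 were lower and 6 higher, with the same median of -0.25. Atp5l was the most exposed, with 10 similar genes, of which Gm10221, Gm4853 and Gm9391 were in the table. Cox7c had Gm10012 and Gm12338 in the table. Ndufb9, Uqcr11, Cox6c, Atp5k, Cox7a2l, Atp5h, Atp5g1 and Ndufs3 were also among the 24.

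Promoters were read as a description, and a link between promoter sequence and the difference between fractions was not tested. The 3 shown are a common subunit that was lower, a long subunit that was higher and the lowest muscle isoform. The sequences are from RefSeq, build GRCm38.p6, 5′ to 3′ on the minus strand, and stop before the gene's own range in the table. Capitals mark matches to the NRF1 motif GCGCNTGCG on either strand. NRF1 is a transcription factor known for driving respiratory chain genes. The windows are chr5:115348982-115349208 for Cox6a1, chr13:74350281-74350490 for Sdha and chr7:140900447-140900696 for Cox8b.
Cox6a1: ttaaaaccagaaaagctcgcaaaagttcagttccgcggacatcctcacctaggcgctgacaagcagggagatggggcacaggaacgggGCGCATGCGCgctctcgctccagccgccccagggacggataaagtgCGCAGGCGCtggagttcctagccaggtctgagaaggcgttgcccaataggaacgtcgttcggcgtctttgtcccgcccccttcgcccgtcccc
Sdha: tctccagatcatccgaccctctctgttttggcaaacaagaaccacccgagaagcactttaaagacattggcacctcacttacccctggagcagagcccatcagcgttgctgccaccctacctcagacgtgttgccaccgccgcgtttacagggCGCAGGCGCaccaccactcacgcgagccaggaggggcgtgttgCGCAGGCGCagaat
Cox8b: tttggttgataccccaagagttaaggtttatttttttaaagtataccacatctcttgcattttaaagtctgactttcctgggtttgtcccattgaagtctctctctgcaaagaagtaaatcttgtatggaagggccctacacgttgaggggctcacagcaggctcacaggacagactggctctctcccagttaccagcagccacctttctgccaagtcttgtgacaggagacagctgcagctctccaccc
Cox6a1, lower in Positive, and Sdha, higher in Positive, each held NRF1 matches in the stretch shown, and that of Cox8b held none. The longer run of capitals in Cox6a1 matches on both strands, and no marked match overlaps another of the motifs searched.

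Windows from 250 bases before to 50 after the start site were given for 64 members, 69 windows in all, and 15 members had none. The NRF1 motif stood in 33.3% of the member windows, against 6.31% of all 32851 windows and 8.61% of the 21263 of protein-coding genes. The ETS motif CCGGAAG, read by the factor GABP, stood in 23.2%, against 8.86% and 11.6%. The YY1 motif AAGATGGCG stood in 10.1% against 1.40% and 1.83%, and the SP1 motif GGGCGG in 36.2% against 35.7% and 46.2%. The motif of PU.1, a myeloid factor, was searched as GAGGAAGT and stood in 4.35% against 3.20% and 3.13%, and the motif of the ERR receptors, TCAAGGTCA, in 2.90% against 0.423% and 0.334%. All were searched on both strands. The NRF1 motif stood in 33.3% of the 39 windows of members lower in Positive and 29.6% of the 27 of members not called, and in 2 of 3 windows of members higher. These matches are counts of letters in a window and were not tested.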

How the data were processed

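Hippocampal Input and Positive RNA of 3 animals was sequenced from directional, poly(A)-selected libraries as pairs of 50-base reads. The authors aligned reads to mm10 in Strand NGS and deposited expected counts, that is, estimated counts per gene that need not be whole, for genes that reached 20 raw reads throughout the libraries of 1 or both fractions. They also deposited normalized log2 values, each relative to the median of Input for that gene, used here only in an alternative. How mates of a pair were counted is not given in the sources used here.

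Expected counts were rounded and tested in R 4.3.3 with edgeR 4.0.16 (glmQLFit, glmQLFTest), with RLE scaling, on genes whose scaled reads exceeded 20 throughout the libraries of 1 or both fractions. Genes with an adjusted p-value (Benjamini-Hochberg) under 0.05 were called. The fit had no pairing term, following the study's methods. Errors of fold changes are SE of the fit. Ratios per animal used a pseudocount of 1. The method was tested on simulated data. Alternatives used TMM or total count scaling, DESeq2 1.42.0, limma 3.58.1, filters, the animal as a block, and leaving out each library. Both fractions of an animal come from the same hippocampus, so animals pair the libraries. The deviations of paired libraries correlated at 0.19, 0.06 and 0.12 in animals 201, 207 and 208.

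Coding length is that of the principal GENCODE M21 transcript, similar transcripts were found with BLAST+ 2.17.0, and motifs were matched by letters. Members, lists and the naming rule (extremes and most-read member of each complex, isoform pairs, members called against their complex, and 4 genes per list at most) were chosen with earlier results of these data known. Other members were named after their values were seen. Some genes that the rule names are not reported here. Reads carried no molecular identifiers.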

Additional observations from a re-analysis of the deposited data

How the results depend on the processing

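The count of members lower stayed at 29 to 49 over the alternatives, and no member called in the reported fit changed sign. The count of members higher, 6 as reported, was 3 under total count scaling and 3 with limma on the deposited values, and 3 to 7 when 1 library was left out. Total count scaling moved the median of the members to -0.33 and that of all genes by -0.08, and the share of higher calls over all genes from 52.1% to 41.6%. When 1 library was left out, the median of the members was -0.30 to -0.20, the count lower 29 to 42, and the difference in the share of reads -0.138 to -0.0894 percentage points. With the animal as a replicate block 43 members were lower and 7 higher, the additions being Ndufa7 and Ndufv1, and the block ended no call. The paired difference in the share of reads, -0.115 percentage points, equals the difference of the group means by construction and is no separate check. Of the 42 members lower, 28 were called in every fit that left out 1 library, and of the 6 higher, 3. The cause of these moves was not tested. With 3 animals, differences of about 0.2 on the log2 scale lay at the edge of the threshold, and Cox8b, Cox6b2, Cox7a1, Cox6a2 and Ndufa4l2 rest on few reads and could not be read under a filter at 100 scaled reads.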
